A study of Mus musculus with 19 samples.

Results

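The 7 genes of the Eph receptor and ephrin family studied here, *Ephb2*, *Ephb3*, *Ephb4*, *Epha2*, *Efnb1*, *Efnb2*, and *Efna1*, were measured by RNA sequencing of mouse small intestinal crypts. They were chosen by name, as receptors and ligands that position cells along the crypt, and matched by symbol to gene identifiers, giving 7 of the 55487 genes listed. All 7 passed the filter on low counts and were among the 17875 genes tested. Crypts came from 19 male and female C57BL/6 mice, 10 to 16 weeks of age, 1 library per mouse. Neurotensin (NT) wild-type mice, *Nt*+/+, and NT knockout mice, *Nt*-/-, were compared with food freely available (ad libitum, 5 *Nt*+/+ and 4 *Nt*-/- mice) and after 48 hours of fasting (5 mice of each genotype). The study used mice of both genotypes with an Lgr5-EGFP reporter allele, which the labels of these libraries do not name. NT is a gut peptide of enteroendocrine cells, and the design asks what fasting and the loss of NT do to the crypt, where stem cells, Paneth cells, and dividing progenitors lie.

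Eph receptors are receptor tyrosine kinases that bind ephrins on neighboring cells, so a signal passes only where cells touch, and both the receptor-bearing and the ligand-bearing cell can respond. EphA receptors mainly bind ephrin-A ligands, which are held to the membrane by a lipid anchor, and EphB receptors mainly bind ephrin-B ligands, which span it. In the intestine, EphB2 and EphB3 are known targets of WNT/β-catenin signaling that are abundant at the crypt base, ephrin-B1 and ephrin-B2 are abundant nearer the villus, and repulsion between the domains keeps Paneth cells at the bottom and differentiated cells above.

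The promoters of the genes that passed a test in any comparison, *Efna1* and *Ephb2*, are printed here because the changes described next are changes in their RNA. Each runs from 250 bases before to 50 bases after a start site in RefSeq (assembly GRCm38.p6, 5′ to 3′ on the minus strand, on which both genes lie). *Efna1* has a pair of start sites, at chr3:89280902-89281201 and chr3:89279596-89279895, and *Ephb2* has 1, at chr4:136835963-136836262. Capitals mark GGGCGG, the GC box, or its reverse complement CCGCCC.
Efna1, upstream start: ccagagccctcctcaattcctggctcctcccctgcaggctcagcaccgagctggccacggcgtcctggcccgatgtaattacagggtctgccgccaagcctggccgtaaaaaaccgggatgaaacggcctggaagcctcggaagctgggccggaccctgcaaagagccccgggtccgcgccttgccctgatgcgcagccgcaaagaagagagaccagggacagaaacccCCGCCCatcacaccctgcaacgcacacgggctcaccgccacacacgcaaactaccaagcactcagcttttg
Efna1, downstream start: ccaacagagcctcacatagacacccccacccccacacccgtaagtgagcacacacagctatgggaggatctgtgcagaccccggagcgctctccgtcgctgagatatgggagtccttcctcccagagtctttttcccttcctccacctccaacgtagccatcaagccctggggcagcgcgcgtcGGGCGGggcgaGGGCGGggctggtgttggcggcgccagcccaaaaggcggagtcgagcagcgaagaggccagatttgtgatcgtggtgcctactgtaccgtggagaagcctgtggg
Ephb2: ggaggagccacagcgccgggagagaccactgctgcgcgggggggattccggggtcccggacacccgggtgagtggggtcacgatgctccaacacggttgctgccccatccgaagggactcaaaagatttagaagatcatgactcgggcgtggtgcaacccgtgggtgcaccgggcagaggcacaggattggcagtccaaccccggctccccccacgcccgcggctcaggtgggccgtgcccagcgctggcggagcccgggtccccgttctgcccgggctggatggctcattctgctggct
The motifs searched on both strands were CTTTGAT and CTTTGAA, forms of the site of the TCF factors that act with β-catenin, TATAAA, and GGGCGG. They do not overlap one another in these 3 promoters. Both *Efna1* promoters held GGGCGG, which 35.7% of 32851 promoters of the same length held, and the *Ephb2* promoter held none of the 4. CTTTGAT, present in 3.73% of all promoters, was in no member's promoter, and CTTTGAA, present in 5.14%, was only in that of *Epha2*. TATAAA, present in 13.6%, was only in that of *Efnb2*. The *Ephb2* promoter and the *Efna1* promoters were 68.7%, 63.7%, and 63.3% G or C, against a median of 52.7% over all promoters. A match describes letters in this window and no binding was measured.

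Library totals ranged from 9059418 to 35068669 counts (median, 18541770). *Nts*, the targeted gene, had between 4.98 and 8.59 CPM (counts scaled to TMM library sizes) in mice titled *Nt*+/+ and between 0.144 and 0.793 in *Nt*-/- mice. A fasted mouse, *Nt*+/+ replicate 5, carries an *Nt*+/+ title but an *Nt*-/- genotype label. It was grouped by its title. Its *Nts* value, 5.43 CPM, lay among those of the other fasted *Nt*+/+ mice, 4.98 to 5.71 CPM, and above every *Nt*-/- mouse, so it goes with the title. Results that depend on this mouse are given without it. Crypts were checked with marker genes. All 9 stem cell markers and all 8 Paneth cell markers reached 1 CPM in every group, the summed endothelial markers reached at most 12.8 CPM and the summed stromal markers at most 11.8 CPM, and the immune markers summed to between 53.4 and 187 CPM. In bulk crypts, fewer cells of a type and less RNA per cell cannot be told apart.

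Levels between genes were compared in TPM, transcript abundances that are divided by gene length. In ad libitum–fed *Nt*+/+ mice *Ephb4* was highest at 37.3 ± 2.89 TPM (SD, n = 5), followed by *Efnb1* at 35.3 ± 3.27, *Ephb2* at 31.4 ± 2.32, *Efnb2* at 24.3 ± 5.05, *Efna1* at 22.3 ± 3.82, *Epha2* at 14.5 ± 5.13, and *Ephb3* at 13.8 ± 2.30. Every neighboring pair in this order overlapped between mice. The order was the same in ad libitum–fed *Nt*-/- mice, from *Ephb4* at 38.1 ± 2.79 TPM (SD, n = 4) to *Ephb3* at 14.9 ± 0.931. Within each mouse, *Ephb4* exceeded *Ephb2* in all 19 mice, and *Ephb2* exceeded *Ephb3* in all 19, by 1.36-fold to 3.14-fold. The 3 EphB receptors, which share ephrin-B ligands, together gave 82.6 ± 6.78 TPM in ad libitum–fed *Nt*+/+ mice, and the 2 ephrin-B ligands gave 59.6 ± 8.28.

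In fasted mice *Efna1* moved up to the first place. It stood at 32.9 ± 5.26 TPM in fasted *Nt*+/+ and 33.6 ± 5.44 TPM in fasted *Nt*-/- mice (SD, n = 5 each), beside *Ephb4* at 32.8 ± 4.37 and 30.7 ± 4.65 and *Efnb1* at 32.0 ± 1.63 and 31.8 ± 2.73. These 3 were not separated by their spread, and in fasted *Nt*+/+ mice *Ephb4* came before *Efna1* when CPM per kilobase was used. *Ephb2* had a lower mean than *Efnb2* only in fasted *Nt*-/- mice, at 24.6 ± 1.59 against 25.7 ± 6.62 TPM, where the ranges overlapped. *Efna1* was below *Ephb2* in all 9 ad libitum–fed mice, with ratios from 0.565 to 0.867, and above it in 3 of 5 fasted *Nt*+/+ and 5 of 5 fasted *Nt*-/- mice, with median ratios of 1.29 and 1.27.

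**Figure D1:**
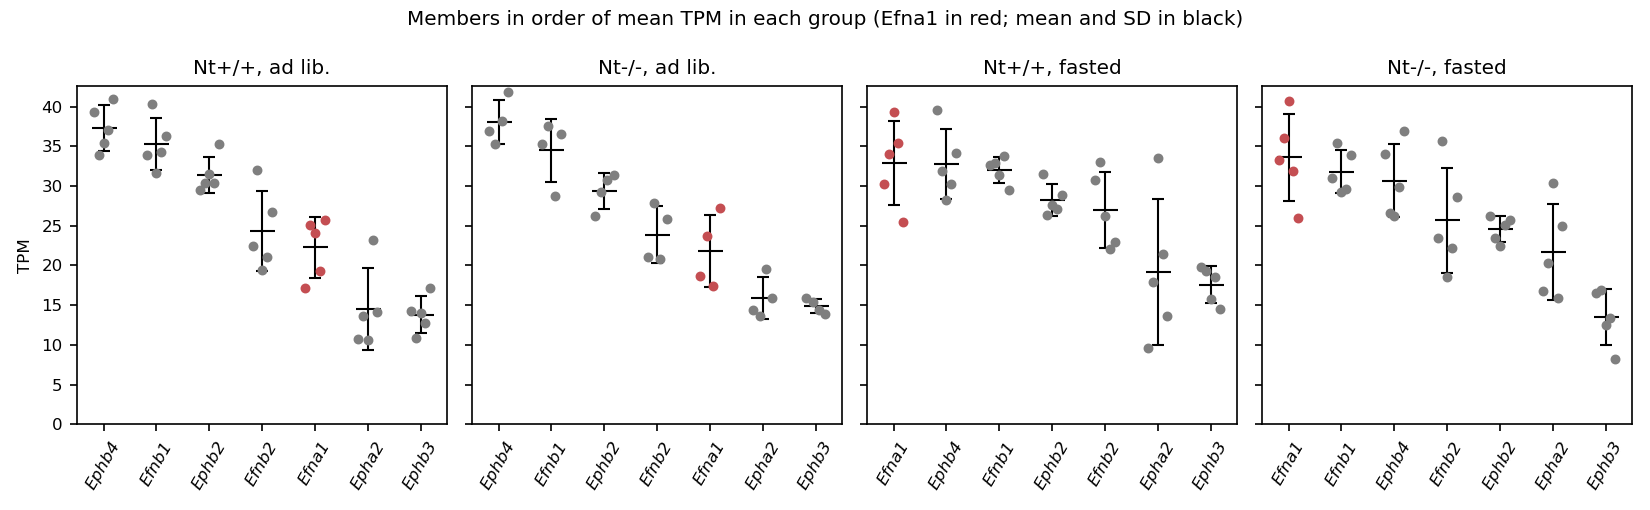
TPM of the 7 members in each of the 4 groups, placed in order of their mean; points are mice, black bars mean and SD, and *Efna1* is red. *Efna1* stands between *Efnb2* and *Epha2* in both ad libitum–fed groups and first in both fasted groups, where its points lie among those of *Ephb4* and *Efnb1*.

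Fasting was first compared within each genotype. In *Nt*+/+ mice 1 of the 7 members passed the test, a rise of *Efna1*, and in *Nt*-/- mice 2 passed, a rise of *Efna1* and a small fall of *Ephb2*. The test was the quasi-likelihood test of edgeR, adjusted over all 17875 genes by Benjamini and Hochberg's method and passed below 0.05, and every adjusted p given here comes from it unless another tool is named. Over all genes 21.6% passed in *Nt*+/+ mice, with 11.2% rising and 10.4% falling, and 25.2% passed in *Nt*-/- mice, with 12.5% rising and 12.6% falling, so the members' counts were near what all genes gave. The median log2 fold change of the 7 was 0.17 in *Nt*+/+ and -0.11 in *Nt*-/- mice, beside -0.01 and -0.02 over all genes tested. The fasting comparisons of the 2 genotypes share no mice, whereas each comparison of the genotypes shares its mice with both of them.

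*Efna1* encodes ephrin-A1, a ligand of EphA receptors including EphA1 and EphA2 (gene ENSMUSG00000027954, chr3:89271733-89281142 of GRCm38, minus strand). In ad libitum–fed *Nt*+/+ mice its values were 24.4, 28.5, 32.2, 22.7, and 29.3 CPM, and in fasted *Nt*+/+ mice 40.2, 39.9, 52.5, 42.2, and 36.5 CPM. In *Nt*-/- mice it measured 26.4, 28.4, 22.6, and 30.8 CPM ad libitum and 48.3, 41.1, 50.9, 38.3, and 33.5 CPM fasted. Every fasted mouse was above every ad libitum–fed mouse, also across genotypes. *Efna1* was the only member whose fasted and ad libitum–fed mice did not overlap, in each genotype, which held for 14.6% of all genes in *Nt*+/+ mice, 21.3% in *Nt*-/- mice, and 7.50% when all 10 fasted mice were set against all 9 fed ones.

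The rise of *Efna1* was 1.54-fold in *Nt*+/+ mice (log2 fold change, 0.63; SE, 0.13; adjusted p = 0.00143) and 1.57-fold in *Nt*-/- mice (log2 fold change, 0.65; SE, 0.13; adjusted p = 0.00142). The rises differed between genotypes by 0.03 on the log2 scale, with a 95% interval from -0.35 to 0.41, so a difference in fold of up to 1.33 lay within it. *Efna1* passed in both genotypes under all 28 alternative settings, with log2 fold changes from 0.54 to 0.69 in *Nt*+/+ and from 0.58 to 0.73 in *Nt*-/- mice. The alternatives include leaving out the mouse with conflicting labels and sex as a covariate.

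Markers of villus enterocytes moved with fasting in the same samples. Of 8 such markers 6 rose in *Nt*+/+ and 7 in *Nt*-/- mice and none fell. Their summed level ranged from 2859 to 5538 CPM in ad libitum–fed *Nt*+/+, 4240 to 6416 in ad libitum–fed *Nt*-/-, 5346 to 11424 in fasted *Nt*+/+, and 9936 to 14061 CPM in fasted *Nt*-/- mice, and none of the 8 was at 0. In 1 fasted *Nt*+/+ mouse, replicate 1, the summed villus markers were 5346 CPM, inside the range of the ad libitum–fed mice, and *Efna1* was 40.2 CPM, above all of them. In fasted *Nt*+/+ replicate 5, the mouse with conflicting labels, the markers summed to 6447 CPM and *Efna1* was 36.5 CPM. In fasted *Nt*-/- replicate 5 the markers summed to 13677 CPM and *Efna1*, at 33.5 CPM, was the lowest of all fasted mice. Replicate 3 had both the highest summed markers and the highest *Efna1* of each fasted group. It had 11424 and 52.5 CPM in *Nt*+/+ and 14061 and 50.9 CPM in *Nt*-/- mice. These single mice carry no test, and the part of the markers in the rise was not tested.

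**Figure D2:**
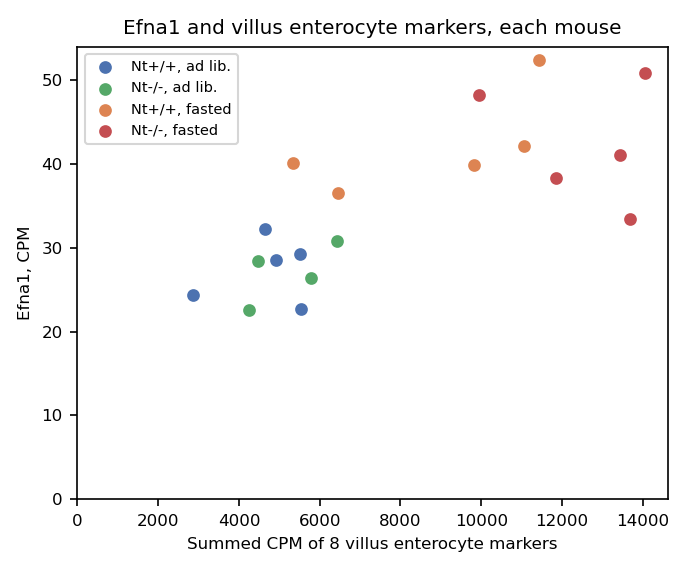
*Efna1* in CPM against the summed CPM of 8 villus enterocyte markers; each point is 1 of 19 mice, colored by group. All fasted mice lie above all ad libitum–fed mice in *Efna1*, from 33.5 CPM. The summed markers run from 5346 to 14061 CPM in fasted mice and from 2859 to 6416 CPM in ad libitum–fed mice.

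*Ephb2* encodes EphB2, the receptor whose level grades from high at the crypt base to low at its top (ENSMUSG00000028664, chr4:136647539-136835988, minus strand). In *Nt*-/- mice it measured 129.7, 118.2, 134.8, and 123.7 CPM ad libitum and 123.9, 86.6, 94.7, 96.8, and 114.4 CPM fasted. Fasted replicate 1 lay inside the ad libitum range and the other 4 below it. *Ephb2* fell by 0.29 on the log2 scale (0.817-fold; SE, 0.11; 95% interval, -0.51 to -0.07; adjusted p = 0.0494). The call was at the edge of the threshold. It was lost with DESeq2 (adjusted p = 0.0641), with no filter on low counts (adjusted p = 0.0669), when only the 2 groups compared were fitted (adjusted p = 0.0813), and when *Nt*+/+ replicate 5 was moved to the fasted *Nt*-/- group (adjusted p = 0.0983), and leaving out any 1 of 13 mice of the 19 ended it as well (adjusted p between 0.0506 and 0.131). Those mice were ad libitum–fed *Nt*+/+ replicates 3, 4, and 5, all 4 ad libitum–fed *Nt*-/- mice, fasted *Nt*+/+ replicates 1, 2, and 5, and fasted *Nt*-/- replicates 2, 3, and 4. The call was kept in 11 of the 28 alternatives, with an adjusted p down to 0.00223, and the direction was downward under all 28. Those 11 include both fits with the replicate number, from titles or file names, added as a block. Moving *Nt*+/+ replicate 5 goes against its *Nts* value of 5.43 CPM.

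In *Nt*+/+ mice *Ephb2* measured 147.1, 116.9, 140.6, 122.4, and 135.6 CPM ad libitum and 124.4, 97.4, 127.9, 100.7, and 122.1 CPM fasted, and the groups overlapped. The log2 fold change was -0.21 (SE, 0.10; adjusted p = 0.143), and the difference between the genotypes was -0.08 with a 95% interval from -0.39 to 0.22. The genotypes were thus not shown to differ in *Ephb2*, although the test of the main fit was passed in *Nt*-/- mice alone. With the replicate number added to the fit as a block, edgeR's test was passed in *Nt*+/+ mice too, at -0.21. The adjusted p was 0.021 with numbers from the titles and 0.0315 with those from the file names. In TPM *Ephb2* ranged from 26.2 to 31.4 in ad libitum–fed and from 22.4 to 26.2 in fasted *Nt*-/- mice.

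Stem cell markers, genes of the same crypt region, were read beside *Ephb2*. *Olfm4*, a marker of cells at the crypt base, fell in both genotypes, by 0.63 on the log2 scale in *Nt*+/+ (adjusted p = 0.0322) and by 0.92 in *Nt*-/- mice (adjusted p = 0.00409). *Smoc2*, another stem cell marker, fell in *Nt*-/- mice by 0.49 (adjusted p = 0.00906), and *Rnf43* and *Znrf3*, WNT-induced inhibitors of WNT receptors, rose in *Nt*+/+ mice by 0.47 and 0.44 (adjusted p = 0.00392 and 0.0106). *Lgr5* and *Ascl2*, which mark the stem cells themselves, did not pass in *Nt*+/+ mice, at 0.29 and 0.63 (adjusted p = 0.287 and 0.114). In *Nt*-/- mice they were at -0.02 and 0.12 (adjusted p = 0.955 and 0.823). By quantitative PCR, another measure, the study reported that fasting raised both in *Nt*+/+ but not in *Nt*-/- crypts. It stated that in its RNA sequencing some stem cell genes did not reach significance. Of the 9 markers, 6 had a log2 fold change above 0 in *Nt*+/+ (median, 0.12) and 3 in *Nt*-/- mice (median, -0.23), so the list did not move 1 way. The 9 stem cell markers summed to between 2305 and 3769 CPM in all ad libitum–fed mice, between 1734 and 2948 CPM in fasted *Nt*+/+, and between 1679 and 2292 CPM in fasted *Nt*-/- mice. Much of this sum was *Olfm4*, at means of 1809 and 1719 CPM in ad libitum–fed and 1166 and 911.1 CPM in fasted *Nt*+/+ and *Nt*-/- mice. The part of the markers in the *Ephb2* values was not tested.

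*Ephb3* encodes EphB3, the receptor that Paneth cells carry (ENSMUSG00000005958, chr16:21204755-21223305, plus strand). In *Nt*+/+ mice it measured 53.1, 31.0, 46.4, 35.4, and 43.8 CPM ad libitum and 64.7, 52.5, 48.7, 49.2, and 46.8 CPM fasted. In mice without NT it measured 54.5, 40.2, 44.6, and 38.1 CPM ad libitum and 58.7, 45.2, 35.3, 39.7, and 27.8 CPM fasted. The groups overlapped in both genotypes, and fasted *Nt*-/- mice spread most, with replicate 1 at 2.11 times replicate 5. The log2 fold change with fasting was 0.32 in *Nt*+/+ mice (SE, 0.17; adjusted p = 0.192) and -0.11 in *Nt*-/- mice (SE, 0.18; adjusted p = 0.722).

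Of all members *Ephb3* gave the largest difference between the genotypes. Fasted *Nt*-/- mice were lower than fasted *Nt*+/+ mice by a log2 fold change of -0.34 (SE, 0.17; unadjusted p = 0.0590 and adjusted p = 0.572 in edgeR's quasi-likelihood test), and the effects of fasting differed by -0.43 with a 95% interval from -0.95 to 0.09 (adjusted p = 1). Neither passed the test. The fasting value in *Nt*-/- mice was 0.01 without ad libitum–fed *Nt*-/- replicate 1, without fasted *Nt*-/- replicate 5, or with sex as a covariate. Of the 8 Paneth cell markers none passed with fasting in *Nt*+/+ mice, where 1 had an unadjusted p under 0.05, and 1, the defensin *Defa17*, fell in *Nt*-/- mice (log2 fold change, -0.72; adjusted p = 0.0320). Over all 17875 genes, 6088 had an unadjusted p under 0.05 with fasting in *Nt*+/+ mice in edgeR's test. The summed Paneth cell markers ranged from 18201 to 44862 CPM in fasted *Nt*-/- and from 21528 to 36959 CPM in fasted *Nt*+/+ mice.

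*Ephb4* encodes EphB4, the partner of ephrin-B2 in blood vessels that epithelial cells carry too (ENSMUSG00000029710, chr5:137350109-137378669, plus strand). It measured 165.3, 114.3, 141.2, 131.6, and 140.3 CPM in ad libitum–fed and 155.4, 109.9, 114.9, 108.2, and 146.8 CPM in fasted *Nt*+/+ mice. The *Nt*-/- mice had 153.0, 125.8, 148.9, and 141.0 CPM ad libitum and 145.2, 88.8, 98.4, 107.6, and 143.3 CPM fasted. Replicates 1 and 5 were the highest in both fasted groups, and the groups overlapped. The log2 fold change with fasting was -0.12 in *Nt*+/+ mice (SE, 0.14; adjusted p = 0.567) and -0.28 in *Nt*-/- mice (SE, 0.15; adjusted p = 0.169). With the replicate number added to the fit as a block, the fall in *Nt*-/- mice passed edgeR's test. It was -0.36 with numbers from the titles (adjusted p = 0.00412) and -0.28 with those from the file names (adjusted p = 0.0209).

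The endothelial markers stood far below *Ephb4*. The 10 summed to between 8.24 and 12.8 CPM in any mouse, with *Egfl7* giving most of it at a mean of 6.48 CPM in ad libitum–fed *Nt*+/+ mice, while the defining marker *Cdh5* had means of at most 0.0984 CPM and *Emcn* was at 0 in 3 of the 4 groups. No endothelial marker passed in either fasting comparison, with 0 and 1 of the 4 tested at an unadjusted p under 0.05. Over all 17875 genes, 6088 in *Nt*+/+ and 6528 in *Nt*-/- mice were under it in edgeR's test. *Ephb4* overlaps *Zan* on the opposite strand by 33 bases, and whether counting used strand is not given in the sources used here.

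*Epha2* encodes EphA2, an epithelial receptor of ephrin-A1 (ENSMUSG00000006445, chr4:141301240-141329384, plus strand). In *Nt*+/+ mice it measured 38.1, 37.7, 34.0, 63.6, and 36.0 CPM ad libitum and 32.9, 48.8, 105.7, 60.2, and 44.1 CPM fasted. The *Nt*-/- mice had 48.4, 37.5, 59.2, and 43.9 CPM ad libitum and 60.4, 52.2, 91.7, 45.5, and 80.1 CPM fasted. Replicate 3, a male by its label, was the highest in each fasted group, and the other labelled male of the fasted groups, *Nt*+/+ replicate 5, had 44.1 CPM. The mean rise was 1.39-fold in *Nt*+/+ (log2 fold change, 0.48; SE, 0.26; adjusted p = 0.203) and 1.40-fold in *Nt*-/- mice (log2 fold change, 0.49; SE, 0.28; adjusted p = 0.218), and neither passed. Without fasted *Nt*+/+ replicate 3 the value in *Nt*+/+ mice was 0.15. *Epha2* varied most of the members, with a coefficient of variation of 48.4% in fasted *Nt*+/+ mice, beside 14.4% for its ligand *Efna1*.

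*Efnb1* and *Efnb2* encode the ephrin-B ligands. *Efnb1* (ENSMUSG00000031217, chrX:99136130-99148991, plus strand) varied little, at 86.1 ± 6.51 and 86.0 ± 9.51 CPM in ad libitum–fed *Nt*+/+ and *Nt*-/- mice and 79.0 ± 5.47 and 79.6 ± 8.30 CPM in fasted ones (SD). Its groups overlapped throughout, from 69.2 to 98.0 CPM over all 19 mice. The log2 fold change with fasting was -0.12 in *Nt*+/+ (95% interval, -0.30 to 0.05; adjusted p = 0.309) and -0.11 in *Nt*-/- mice (95% interval, -0.29 to 0.07; adjusted p = 0.389). As folds, these intervals run from 0.814 to 1.03 and from 0.815 to 1.05.

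*Efnb2* (ENSMUSG00000001300, chr8:8617434-8661242, minus strand) measured 92.2, 111.1, 78.1, 75.8, and 88.3 CPM in ad libitum–fed and 112.6, 113.6, 90.7, 82.5, and 101.1 CPM in fasted *Nt*+/+ mice. The *Nt*-/- mice had 92.6, 94.8, 75.2, and 93.9 CPM ad libitum and 103.5, 114.4, 68.8, 78.8, and 109.0 CPM fasted. Replicate 2 was the highest in all 4 groups. The log2 fold change was 0.17 in *Nt*+/+ (SE, 0.14; adjusted p = 0.416) and 0.09 in *Nt*-/- mice (SE, 0.14; adjusted p = 0.704), so the ligand showed no change that these mice could separate from their spread. The annotation puts 3 other genes on the same strand inside *Efnb2*, with means of 4.69 to 17.0 CPM, and reads could be shared with them.

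**Figure D3:**
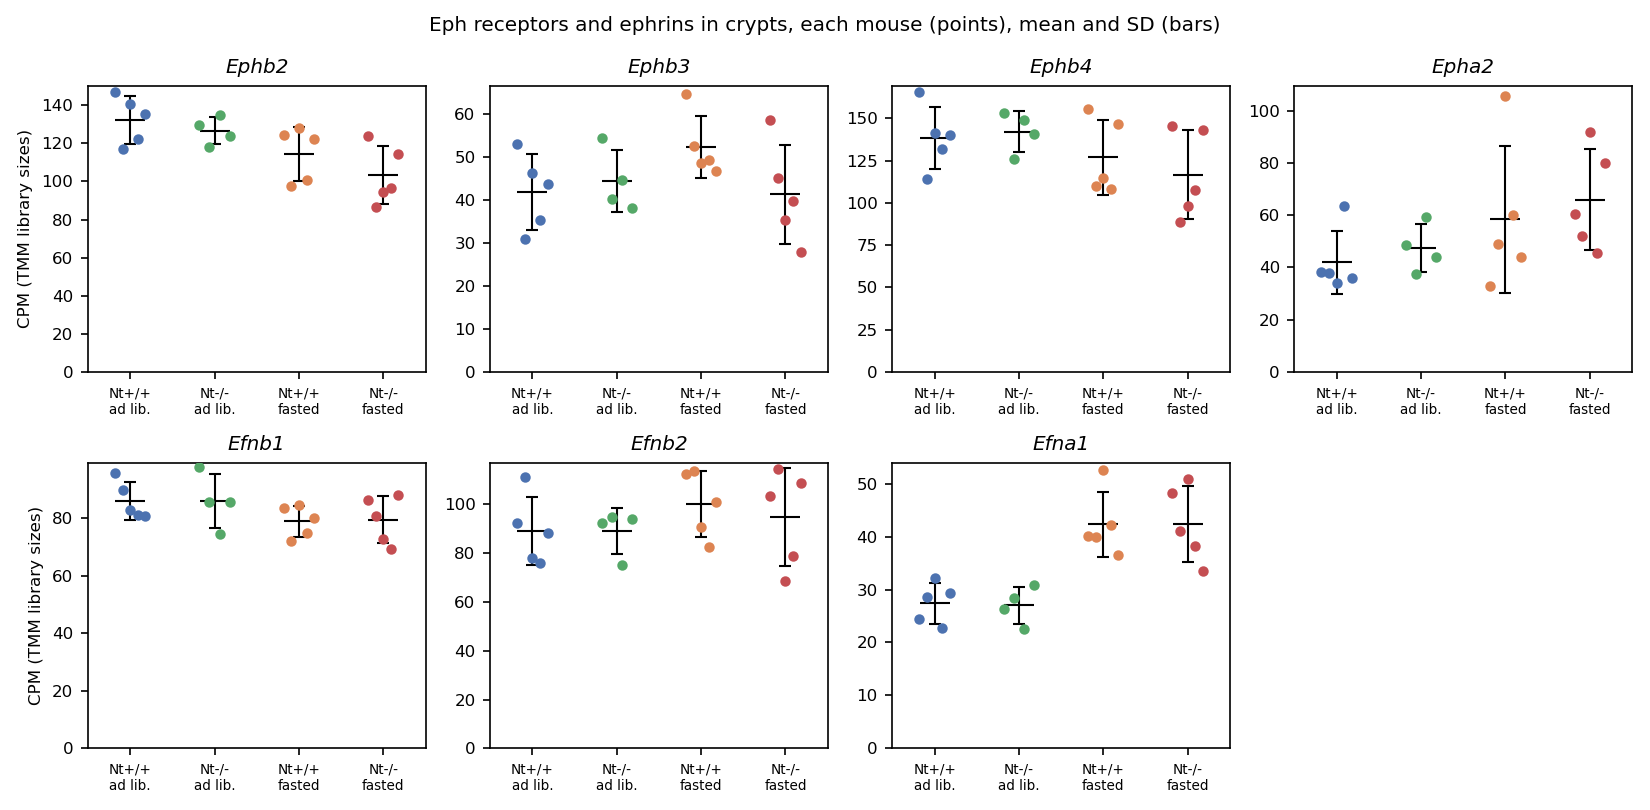
CPM of each member in each mouse, by group; points are mice, the horizontal bar is the mean, and the error bar is the SD (n = 5, 4, 5, and 5). The fasted *Efna1* values, from 33.5 CPM, lie above all ad libitum–fed values, which end at 32.2 CPM, and in every other panel the diets overlap.

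The loss of NT was then compared within each diet, in crypts from the proximal part of the small intestine. None of the 7 members passed in ad libitum–fed mice and none passed in fasted mice, by edgeR's quasi-likelihood test, by DESeq2, or at an unadjusted p under 0.05, where the count was 0 in both. Over all genes 0.00559% passed in each diet, which is 1 gene, *Nts*. In edgeR's test 299 of all 17875 genes had an unadjusted p under 0.05 ad libitum and 1634 fasted. A count of 0 among 7 genes is therefore no result about the members. In ad libitum–fed mice the members' log2 fold changes of *Nt*-/- against *Nt*+/+ ran from -0.07 for *Ephb2* to 0.17 for *Epha2*. In fasted mice they ran from -0.34 for *Ephb3* to 0.18 for *Epha2*. *Ephb2* and *Ephb4* had values of -0.15 and -0.12, and *Efna1* and *Efnb1* were both at 0.01. For *Efna1* the 95% interval was -0.30 to 0.26 ad libitum and -0.25 to 0.27 fasted. In the same fasted mice all 8 villus enterocyte markers were higher in *Nt*-/- mice, with a median log2 fold change of 0.46 and none past the test, 2 having an unadjusted p under 0.05. Their part in the receptor values was not tested.

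The effect of fasting did not differ detectably between the genotypes for any member. None of the 7 passed the test of the difference, and none had an unadjusted p under 0.05. Over all genes 0% passed in edgeR, with 485 at an unadjusted p under 0.05, and DESeq2 called 0 as well. The differences ran from -0.43 for *Ephb3* to 0.03 for *Efna1*.

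**Figure D4:**
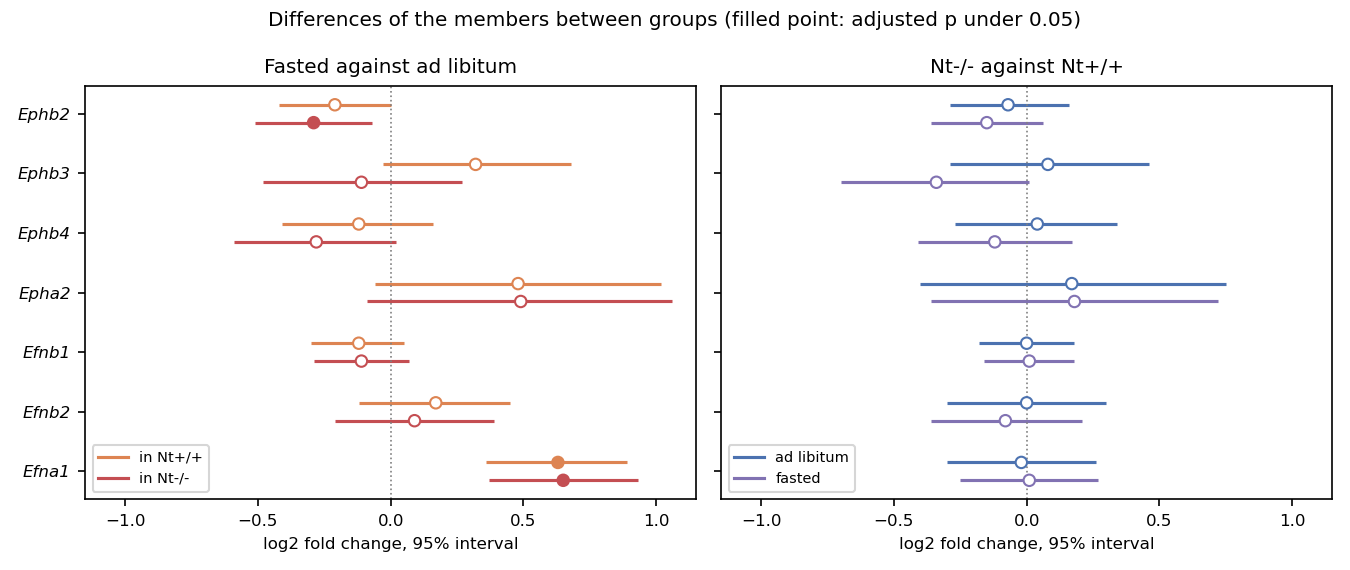
Log2 fold change of each member with its 95% interval, with fasting in each genotype on the left and for *Nt*-/- against *Nt*+/+ in each diet on the right; filled points passed at an adjusted p under 0.05. The *Efna1* intervals with fasting, 0.36 to 0.89 and 0.37 to 0.93, lie on 1 side of 0 in both genotypes, and no interval on the right excludes 0.

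Of the 15 other Eph receptors and ephrins, 6 were expressed enough to be tested. The 9 not tested, among them *Epha3*, *Ephb1*, and *Efna5*, had means of at most 0.272 CPM, and *Epha6* had no count in any mouse. Of the 6, 1 rose and none fell with fasting in *Nt*+/+ mice, and 1 rose and 1 fell in *Nt*-/- mice, where 21.6% and 25.2% of all genes passed. Their median log2 fold changes were 0.24 and -0.39, beside -0.01 and -0.02 over all genes. The gene that rose in both was *Epha1*, an EphA receptor of epithelia, and the gene that fell was *Efnb3*, the third ephrin-B ligand.

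*Epha1* measured 40.5, 41.4, 43.9, 48.3, and 43.9 CPM in ad libitum–fed and 45.1, 67.1, 64.1, 68.8, and 47.3 CPM in fasted *Nt*+/+ mice. It measured 57.0, 45.6, 45.8, and 50.9 CPM in ad libitum–fed and 65.9, 69.8, 69.2, 63.5, and 78.8 CPM in fasted *Nt*-/- mice. The groups did not overlap in *Nt*-/- mice. In *Nt*+/+ mice they did, since fasted replicates 1 and 5 lay inside the ad libitum range. These mice had the lowest summed villus markers of the fasted *Nt*+/+ group. In fasted *Nt*-/- mice the lowest sum was in replicate 1, at 9936 CPM, and the lowest *Epha1* was in replicate 4. The part of the villus markers in these values was not tested. *Epha1* rose 1.34-fold in *Nt*+/+ (log2 fold change, 0.42; adjusted p = 0.00867) and 1.39-fold in *Nt*-/- mice (log2 fold change, 0.48; adjusted p = 0.00488), under all 28 alternatives in each. *Efna1*, a ligand of the same class, was above its ad libitum range in fasted *Nt*+/+ replicates 1 and 5.

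*Efnb3* was low, at 1.61 ± 0.360 CPM in ad libitum–fed and 0.995 ± 0.404 CPM in fasted *Nt*+/+ mice (SD, n = 5 each), and at 1.51 ± 0.375 (n = 4) and 0.648 ± 0.369 CPM (n = 5) in *Nt*-/- mice. It fell in *Nt*-/- mice (log2 fold change, -1.33; SE, 0.36; adjusted p = 0.00972) and had a value of -0.70 in *Nt*+/+ mice (SE, 0.31; adjusted p = 0.118). The groups overlapped in both genotypes. The difference between the genotypes was -0.62, with a 95% interval from -1.61 to 0.37.

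Of 24 signaling partners, the adaptors, exchange factors, kinases, phosphatases, and the protease that act with Eph receptors, 23 were tested. With fasting 2 rose and 4 fell in *Nt*+/+ mice, and 3 rose and 4 fell in *Nt*-/- mice, beside 21.6% and 25.2% of all genes passing, and the median log2 fold changes were 0.02 and 0.06. The 4 with the smallest p values were *Vav3*, *Inppl1*, *Kalrn*, and *Ptpro*. *Vav3*, a signaling protein that binds activated Eph receptors, measured 3.12, 4.76, 3.70, 3.45, and 3.62 CPM in ad libitum–fed and 12.2, 8.60, 6.64, 9.02, and 13.4 CPM in fasted *Nt*+/+ mice. It rose 2.67-fold in *Nt*+/+ (log2 fold change, 1.42; SE, 0.18; adjusted p = 1.76e-05) and 2.74-fold in *Nt*-/- mice (log2 fold change, 1.46; SE, 0.19; adjusted p = 2.52e-05). Its fasted mice lay above the ad libitum–fed ones in both genotypes, and replicates 1 and 5 were the highest of the fasted *Nt*+/+ mice.

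*Kalrn*, which encodes kalirin, an exchange factor downstream of EphB receptors, measured 32.8, 60.9, 72.3, 80.9, and 35 CPM in fasted *Nt*+/+ mice and 29.0 to 35.5 CPM in ad libitum–fed ones. Replicates 1 and 5 again lay inside the ad libitum range. It rose 1.74-fold in *Nt*+/+ (adjusted p = 0.00897) and 2.01-fold in *Nt*-/- mice (adjusted p = 0.00240), where fasted mice lay between 59.7 and 104.6 CPM and ad libitum–fed mice between 31.7 and 44.8 CPM. *Inppl1* encodes SHIP2, a lipid phosphatase that binds EphA2 and limits its internalization. It fell from 116.5 ± 11.7 to 93.1 ± 5.16 CPM in *Nt*+/+ (0.799-fold; adjusted p = 0.00467) and from 122.5 ± 12.9 to 86.7 ± 4.91 CPM in *Nt*-/- mice (0.708-fold; adjusted p = 0.000177), with no overlap in either. *Ptpro* encodes a receptor phosphatase that acts on Eph receptors. It fell from 3.46 ± 0.911 to 1.83 ± 0.573 CPM in *Nt*+/+ (0.531-fold; adjusted p = 0.00886) and from 3.19 ± 0.842 to 1.71 ± 0.242 CPM in *Nt*-/- mice (0.539-fold; adjusted p = 0.0137), where without ad libitum–fed *Nt*-/- replicate 3 the adjusted p was 0.0575.

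**Figure D5:**
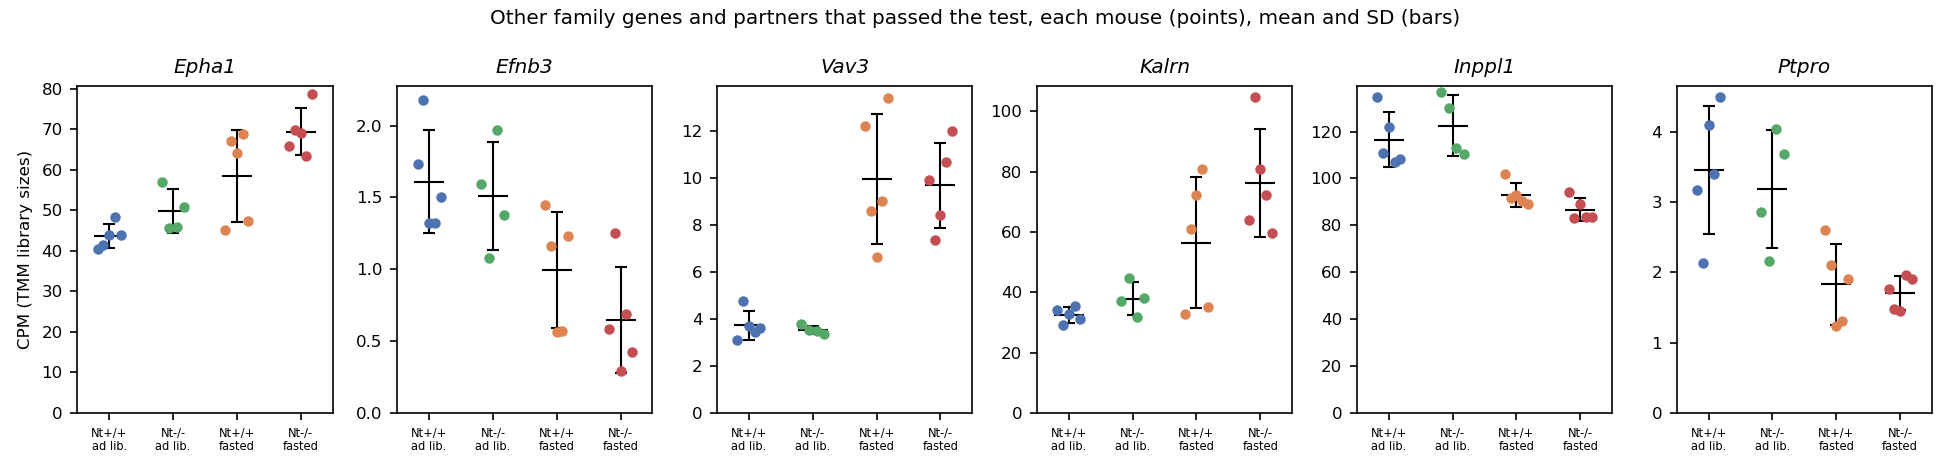
CPM of the other family genes and of the 4 partners with the smallest p values, in each mouse by group; points are mice and bars mean and SD (n = 5, 4, 5, and 5). Fasted *Nt*+/+ replicates 1 and 5 lie near the ad libitum–fed mice in *Epha1* and *Kalrn*, at 45.1 and 47.3 CPM and at 32.8 and 35 CPM, and at the top of their group in *Vav3*, at 12.2 and 13.4 CPM.

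In *Nt*+/+ mice *Adam10*, the protease that cuts ephrins, and *Crk*, an adaptor, fell by 0.37 and 0.33 on the log2 scale (adjusted p = 0.00982 and 0.00949). In *Nt*-/- mice *Crk* fell by 0.30 (adjusted p = 0.0233) and *Itsn1*, intersectin, by 0.20 (adjusted p = 0.0344), and the kinase *Src* rose by 0.31 (adjusted p = 0.0168). These 4 were named after their values were seen, to complete the counts.

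The members did not vary as 1 group. Over the 19 mice Pearson's r of log2 CPM was 0.873 between *Ephb2* and *Ephb4*, and 0.870 for deviations from the group means. It was 0.227 between *Ephb2* and *Ephb3* and -0.537 between *Ephb2* and *Efna1*, which was 0.0235 for deviations from the group means. *Efnb1* and *Efnb2* gave 0.382, and 0.600 for the deviations. These values describe libraries that share diet, genotype, and depth, and carry no test.

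Outside the members, among 13063 genes with a mean of at least 1 log2 CPM, those with the most similar pattern over the 19 mice were named by Pearson's r. *Ephb2* was nearest to *Prpf19* (r = 0.962) and *Ruvbl2* (0.959), *Ephb4* to *Fam129b* (0.927) and *Lbr* (0.926), and *Ephb3* to *Snx33* (0.888) and *Iqsec1* (0.850). *Epha2* was nearest to *Tbx3* (0.926) and *Hbegf* (0.895), *Efnb1* to *Ctsc* (0.883) and *Ndufa13* (0.882), and *Efnb2*, with the lowest values, to *Sft2d2* (0.784) and *Itpkc* (0.778). *Efna1* was nearest to *Hif3a* (0.925) and *Dcaf8* (0.921), and for deviations from the group means these gave 0.694 and 0.680. The pairs of the other members gave at least 0.764 on that measure.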

How the data were processed

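Crypts were isolated with EDTA from the proximal part of the small intestine, without its distal segment, per the study's methods. Ribosomal RNA–depleted libraries were sequenced. The study reported effects of NT loss on dividing and goblet cells in distal crypts and not in proximal ones. The comparisons of genotypes here do not cover that distal segment. In isolated crypts the study also reported less phosphorylated ERK protein in ad libitum–fed *Nt*-/- than *Nt*+/+ mice. From RNA sequencing of crypts it reported lower cell-cycle gene sets in *Nt*-/- mice in both diets. Protein and gene sets were not examined here. Per the labels and methods, the authors trimmed reads with Trimmomatic 0.39 and quantified them with RSEM against Ensembl release 100 of GRCm38 (the RSEM version and strand setting are not given in the sources used here). The authors deposited, per gene and mouse, expected counts, which divide ambiguous reads between genes, TPM, which scale for gene length and library total, and the effective length in bases, another quantity.

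Here expected counts were rounded and 55141 of the 55487 genes were matched to a GENCODE symbol. Counts were normalized by TMM in edgeR 4.0.16 (R 4.3.3). The 17875 genes that passed filterByExpr were tested by edgeR's quasi-likelihood test with 1 coefficient per group, 15 residual degrees of freedom, and a biological coefficient of variation of 18.9%. The fit was tested on simulated data. DESeq2 1.42.0 was an alternative. Each standard error is the size of the log2 fold change divided by the root of the F statistic, and 95% intervals use the moderated degrees of freedom. Log2 CPM for likeness used a prior count of 2. Groups came from the sample titles.

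The 7 members and all lists were chosen with earlier results of these data known. Named genes are all members, of the family and partner lists up to 4 each with the smallest p among those that passed in any pairwise comparison, the 2 genes most alike each member, *Nts*, and genes named to complete counts.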

Additional observations from a re-analysis of the deposited data

Results flagged for a closer look

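In 2 of the 28 groups of values, 7 members in 4 groups each, a mouse stood apart from the others by Dixon's test, which flags about 1 in 20 groups by chance. *Epha2* was 63.6 CPM in ad libitum–fed *Nt*+/+ replicate 4, and the next value in that group was 38.1 CPM. *Efnb2* was 75.2 CPM in ad libitum–fed *Nt*-/- replicate 3, and the next was 92.6 CPM. Leaving out either mouse ended no call of these 2 genes, since neither had passed a test.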

How the results depend on the processing

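For single members 973 values were recomputed under 28 alternatives per comparison (27 for the difference between genotypes), and 880 kept their direction and their side of the threshold. *Ephb2* in fasted *Nt*-/- mice lost its call in 17, 4 values gained a call, and 72 values changed sign, none of them called.

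The number of members passing with fasting in *Nt*+/+ mice, 1, was 2 with either replicate block and 1 without any 1 mouse. In *Nt*-/- mice the 2 became 1 with no filter, with DESeq2, with only the groups compared, and with the mouse of 2 labels as *Nt*-/-, and ranged from 1 to 2 without 1 mouse. It was 3 with the replicate block. The counts of 0 stayed 0. For *Ephb2* in *Nt*-/- mice the adjusted p in edgeR's test was 0.0557, 0.0526, and 0.0575 without ad libitum–fed *Nt*+/+ replicate 3, 4, or 5; 0.101, 0.0586, 0.131, and 0.0740 without *Nt*-/- replicates 1 to 4; 0.0506, 0.0584, and 0.0537 without fasted *Nt*+/+ replicate 1, 2, or 5; and 0.120, 0.109, and 0.0955 without fasted *Nt*-/- replicate 2, 3, or 4.

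The replicate block rests on numbers in the titles. Over 27 pairs of mice with the same title number the mean correlation of deviations from the group means was 0.184, 19 of them over 0.1, beside -0.0457 over 108 pairs with different numbers, and with the numbers in the file names 24 of 27 were over 0.1. By file names the mean was 0.227 and the lowest 0.0672, beside a mean of -0.0565 over pairs with different numbers. Mice with the same number were thus more alike on average. The study states littermate controls, but no source used here ties a number to a litter. Not every pair was over 0.1, and the main fit left the numbers out, which does not show that these mice are unrelated. A mouse correlated best, among mice of the other groups, with 1 of its own number in 13 of 19 by titles and in 17 of 19 by file names. With the block by titles *Ephb4* passed in *Nt*-/- mice at -0.36 (adjusted p = 0.00412) and with file-name numbers at -0.28 (adjusted p = 0.0209), and *Ephb2* passed in *Nt*+/+ mice at -0.21 with each (adjusted p = 0.0210 by titles). No other member's call changed with a block. Of 5 same-number fasted pairs, the *Nt*-/- mouse was higher in 0 for *Ephb2*, *Ephb3*, and *Ephb4* and 2 or 3 for others. Fasted *Efna1* was higher in all 5 *Nt*+/+ and 4 *Nt*-/- pairs, *Ephb2* in 0, and *Ephb3* and *Efnb2* in 5 *Nt*+/+ pairs. The rest was mixed or varied by numbering. No count was tested or set against all genes, and *Ephb2* and *Ephb4* varied alike.

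Sign changes, all near 0 and uncalled, were as follows. *Ephb3* with fasting in *Nt*-/- mice was 0.01 with sex as a covariate and ranged from -0.27 to 0.01 without 1 mouse. Between genotypes ad libitum, leaving out 1 mouse gave -0.03 to 0.19 for *Ephb3*, -0.02 to 0.11 for *Ephb4*, -0.07 to 0.06 for *Efnb1*, -0.05 to 0.09 for *Efnb2*, and -0.09 to 0.06 for *Efna1*. There *Efnb1* was 0.01 with no filter and 0.00 with the title block or only the groups compared, *Efnb2* was -0.00 with a minimum of 10 counts or upper quartile normalization, -0.05 with the file-name block, and -0.02 with sex, and *Efna1* was 0.05 with the file-name block and 0.02 with sex. Between genotypes fasted, leaving out 1 mouse gave -0.03 to 0.06 for *Efnb1*, -0.15 to 0.02 for *Efnb2*, and -0.07 to 0.10 for *Efna1*. There upper quartile normalization gave -0.00 for *Efnb1* and *Efna1*, sex gave -0.03 for *Efnb1*, and the mouse of 2 labels as *Nt*-/- gave -0.08 for *Efna1*. In the difference between genotypes, leaving out 1 mouse gave -0.19 to 0.34 for *Epha2*, -0.05 to 0.08 for *Efnb1*, -0.17 to 0.02 for *Efnb2*, and -0.05 to 0.12 for *Efna1*. There *Epha2* was -0.01 with no filter, -0.02 with the file-name block, -0.06 with sex, and -0.16 with the mouse of 2 labels as *Nt*-/-, *Efnb1* was -0.00 with no filter and -0.03 with sex, and *Efna1* was -0.05 with the file-name block and -0.06 with that mouse as *Nt*-/-.

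DESeq2 called 3 genes between genotypes ad libitum and 101 fasted, where edgeR called 1 in each, and no member among them. The cause of these changes was not tested. With 4 or 5 mice a group, the 95% intervals of *Epha2* and *Ephb3* are the widest, and a change inside them was not detectable here. Moving the mouse of 2 labels to the fasted *Nt*-/- group ended the *Nts* calls (adjusted p = 0.0824 ad libitum and 0.781 fasted in edgeR). That mouse had 5.43 CPM of *Nts*, against at most 0.793 CPM in mice titled *Nt*-/-.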
